A study of Mus musculus with 6 samples.

Results

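The 9 genes described here serve the absorption of bile acids and of cobalamin (vitamin B12) and were taken by name from a table of 23402 gene symbols. They are Slc10a2, Fabp6, Slc51a, Slc51b, Nr1h4, Nr0b2, Fgf15, Cubn and Amn, and all 9 were found. RNA was sequenced from whole tissue labelled terminal ileum, from 6 mice aged 6 weeks that had received dextran sodium sulfate (DSS), a polysaccharide that injures the gut epithelium, and were sampled on day 6. The 3 KO libraries came from Il17rafl/fl;Atoh1-cre+ mice, in which Cre is driven by Atoh1, the gene for the transcription factor of the secretory lineage, and removes floxed sequence of the interleukin-17 receptor gene Il17ra. The 3 WT libraries came from Il17rafl/fl;Atoh1-cre- littermates, which carry the same floxed alleles without Cre. All 6 animals were given DSS, and mice without it were not analysed here. The comparison of KO with WT asks what the loss of interleukin-17 receptor in secretory cells does to the tissue, whereas the 9 genes are mainly known from absorptive enterocytes, outside the lineage that Atoh1 specifies.

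In the mouse, conjugated bile acids are taken up at the brush border of ileal enterocytes by the sodium-coupled transporter encoded by Slc10a2, carried through the cell by the ileal bile acid binding protein encoded by Fabp6, and released into the blood by a heterodimer of the proteins encoded by Slc51a and Slc51b. Bile acids in the cell activate the nuclear receptor FXR, encoded by Nr1h4, which induces Fabp6, Slc51a, Slc51b, the repressor gene Nr0b2 (SHP) and Fgf15, a hormone that signals to the liver to lower bile acid synthesis. Cobalamin bound to intrinsic factor is taken up in the distal small intestine by cubilin (Cubn), a large peripheral protein held at the membrane by amnionless (Amn).

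Between 16317 and 16547 genes were above 0 per library. The spacing of the lowest values gave an estimated depth of 8.8 to 10.25 fragments per kilobase of transcript at 1 FPKM. Il17ra, the targeted gene, stood at 7.93, 8.36 and 6.07 FPKM in KO libraries, against 6.04, 5.91 and 6.53 FPKM in WT libraries, a log2 fold change of 0.23 (SE 0.13, limma adjusted p = 0.998). FPKM are fragments per kilobase of transcript, scaled to depth. Il17ra was not lower in KO, no source used here names the floxed exons, and many cells of whole tissue lie outside the Atoh1 lineage, so Il17ra did not check the labels. Libraries KO 1 and KO 2 stood apart in B cell markers, whose 10 genes summed to 82.5 and 101 FPKM there, 11.6 FPKM in KO 3 and 7.71 to 16.4 FPKM in WT libraries. The labels give no batches.

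The genes divided into 5 with substantial transcript levels and 4 near the lower limit of detection. Slc51a, Slc51b, Cubn, Amn and Nr1h4 were at 10 FPKM or more in every library, with means over all 6 of 116, 69.7, 66.2, 45.5 and 27.2 FPKM. Fabp6, Fgf15, Slc10a2 and Nr0b2 were under 10 FPKM in every library, with means of 2.51, 1.64, 0.632 and 0.238 FPKM. Values per length can be compared between genes, and in that order Slc51a ranked 597 of 23402 symbols by mean FPKM, while Fabp6 ranked 10985 and Slc10a2 13363. Of neighbours in this order, Slc51a stood above Slc51b and Nr1h4 above Fabp6 in all libraries without overlap of their ranges, and the other neighbours overlapped.

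**Figure D1:**
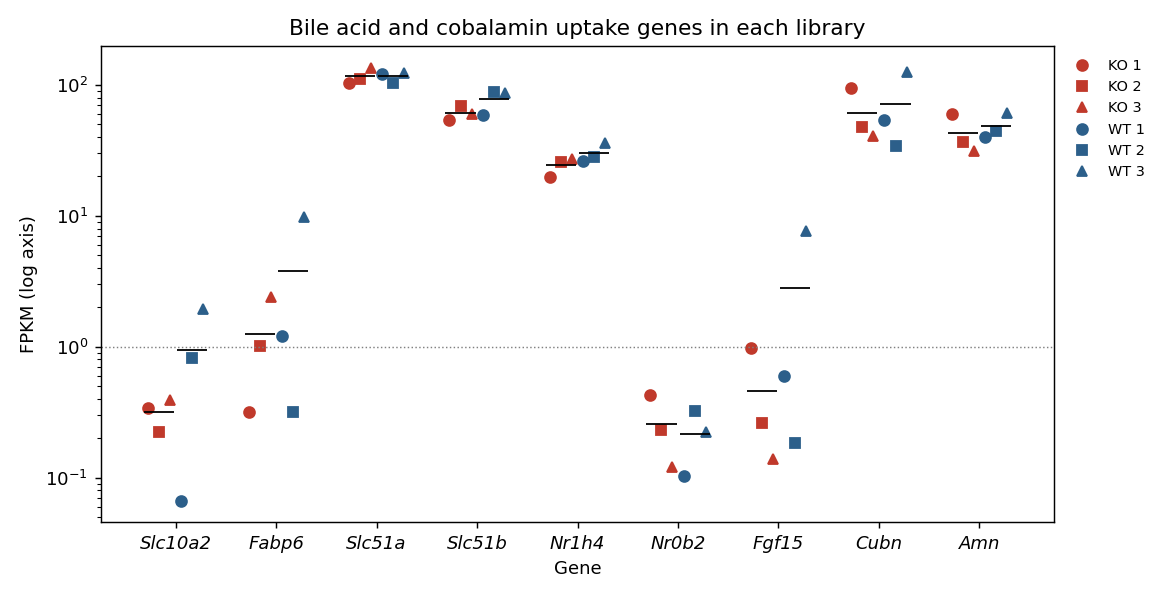
FPKM of the 9 genes in each library on a log axis, KO libraries (red) left of WT libraries (blue), with the marker shape giving the replicate number, a short bar at each group mean and a dotted line at 1 FPKM. Slc51a, Slc51b, Nr1h4, Cubn and Amn stand at 10 FPKM or more throughout, while Slc10a2, Fabp6, Nr0b2 and Fgf15 lie under 10 FPKM, with WT 3 highest for Slc10a2, Fabp6 and Fgf15.

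The labelled segment was checked against its defining genes. Fabp6, ordinarily among the most abundant transcripts of mouse ileal enterocytes, lay between 0.316 and 9.79 FPKM, Slc10a2 between 0.0669 and 1.94 FPKM and Fgf15 between 0.139 and 7.70 FPKM. Of 12 genes known from the duodenum and jejunum, 8 were above 20 FPKM in all 6 libraries. Gata4, a transcription factor of the proximal small intestine that is known to be absent from adult mouse terminal ileum, stood at 37.1, 48.0 and 49.3 FPKM in KO libraries, against 38.9, 46.2 and 43.0 FPKM in WT libraries. Its level was between 4.39 and 146 times that of Fabp6 in the same library. The other fatty acid binding proteins of enterocytes were abundant, with Fabp1 between 718 and 1106 FPKM and Fabp2 between 1242 and 2947 FPKM, and Fabp2 was 301 to 7818 times the level of Fabp6 within a library. Lct, the lactase gene, lay between 188 and 419 FPKM, and Slc2a2, the basolateral glucose transporter gene, between 60.4 and 87.7 FPKM. The other 4 proximal markers were low, with Cybrd1, an iron reductase gene of the duodenum, between 1.63 and 2.31 FPKM, the iron exporter gene Slc40a1 between 5.01 and 9.98 FPKM, Onecut2 between 2.58 and 9.16 FPKM and Gsta1 between 2.07 and 17.3 FPKM. Of 12 colon and caecum markers in the table, Hoxb13, Hoxd11 and Prdx6b were listed at 0 in all libraries, and Car1 reached at most 1.14 FPKM, while the transporter gene Slc26a3 was at 66.3 to 88.7 FPKM. Fabp6, Slc10a2 and Fgf15 thus went against the label in both groups, while Slc51a, Slc51b, Cubn and Amn, also known from the ileum, averaged 116, 69.7, 66.2 and 45.5 FPKM. The marker evidence on the segment was mixed, and the genes below are called by name and not as a measure of ileal enterocytes. The position of the sampled tissue along the bowel was not tested beyond these markers.

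**Figure D2:**
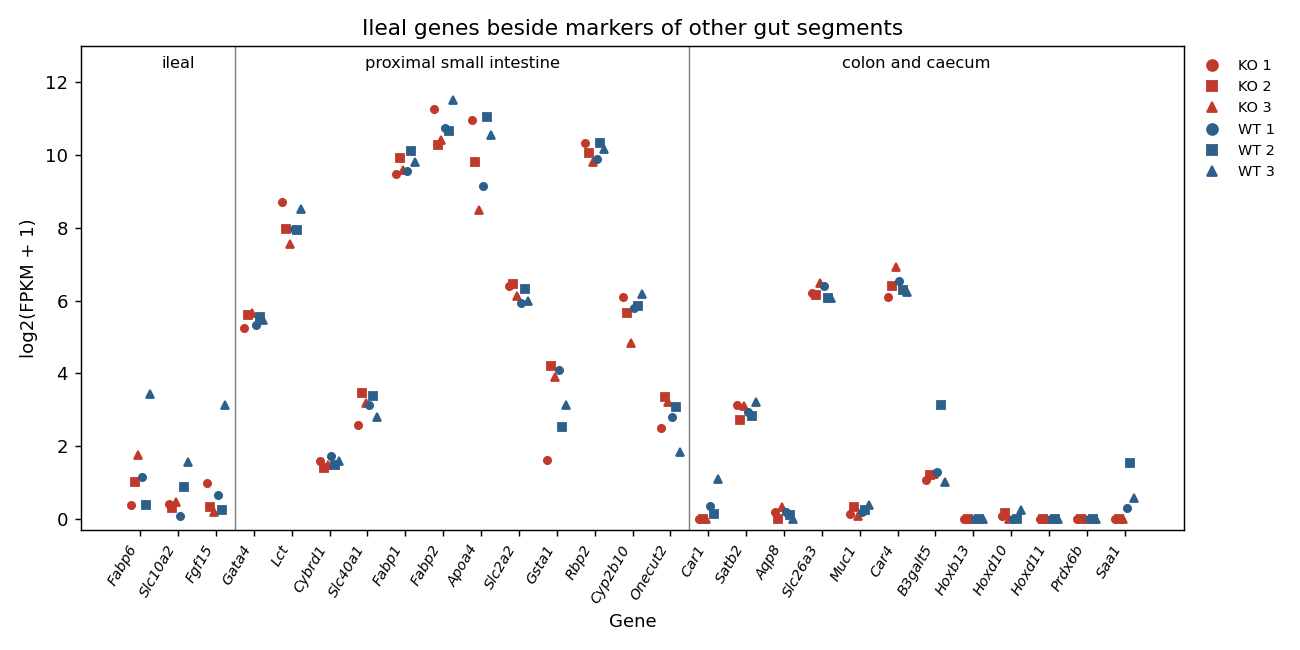
log2(FPKM + 1) of Fabp6, Slc10a2 and Fgf15 (left), 12 proximal small intestine markers (middle) and 12 colon and caecum markers (right) in each library, KO red and WT blue, with the marker shape giving the replicate number. Gata4, Lct, Fabp1, Fabp2 and Rbp2 are high in all 6 libraries, while Slc10a2 lies near the bottom throughout and Fabp6 and Fgf15 are highest in WT 3.

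Promoter sequence is shown for a gene at low level, Fabp6, and a pair at high level, Slc51b and Cubn, because genes known as FXR targets or as genes of the distal small intestine lay at both ends of the range of levels. Each run holds the 250 bases before the start site in RefSeq (GRCm38.p6), 5′ to 3′ on the gene's strand, and capitals mark a motif match. Entries were matched by symbol for 8 of the 9 genes, all but Fgf15. The FXR element was searched as the inverted repeat of AGGTCA and TGACCT with any 1 base between them, with up to 3 mismatches over its 12 defined letters. Both strands were searched, and each match to this palindromic element was counted a single time.
Fabp6, chr11:43601563-43601812, minus strand: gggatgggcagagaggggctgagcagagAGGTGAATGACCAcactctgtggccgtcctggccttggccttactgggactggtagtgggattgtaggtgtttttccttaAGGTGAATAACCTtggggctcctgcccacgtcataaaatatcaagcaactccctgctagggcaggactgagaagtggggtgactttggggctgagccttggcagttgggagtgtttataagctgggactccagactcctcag
Slc51b, chr9:65422774-65423023, minus strand: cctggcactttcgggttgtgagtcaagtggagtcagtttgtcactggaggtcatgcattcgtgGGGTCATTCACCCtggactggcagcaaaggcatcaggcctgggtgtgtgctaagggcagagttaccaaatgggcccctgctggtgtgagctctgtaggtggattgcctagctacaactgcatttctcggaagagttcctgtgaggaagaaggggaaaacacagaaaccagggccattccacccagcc
Cubn, chr2:13491877-13492126, minus strand: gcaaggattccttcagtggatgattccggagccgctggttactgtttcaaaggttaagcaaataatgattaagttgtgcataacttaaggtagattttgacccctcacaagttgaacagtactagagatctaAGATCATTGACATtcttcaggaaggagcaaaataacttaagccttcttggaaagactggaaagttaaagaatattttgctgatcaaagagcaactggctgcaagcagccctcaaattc
Fabp6 held 2 matches to the FXR element with 2 mismatches each, AGGTGAATGACCA from base -222 and AGGTGAATAACCT from base -142 relative to the start site, and Cubn held AGATCATTGACAT from base -118, also with 2 mismatches. Of 32851 promoters of the same length, 0.959% held a match at up to 2 mismatches. Slc51b held GGGTCATTCACCC from base -187 and Slc51a AGGACTTTGTCCT from base -79, each with 3 mismatches, where 9.63% of promoters held one. Slc10a2, Nr1h4, Nr0b2 and Amn held none in this window.

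Slc10a2, the importer (chromosome 8, 5083219 to 5105351, minus strand, in the GENCODE M21 annotation of GRCm38), was at 0.342, 0.223 and 0.391 FPKM in KO libraries, against 0.0669, 0.824 and 1.94 FPKM in WT libraries. With the length of its annotated transcript, these values correspond to about 14, 8 and 14 fragments in KO libraries and 3, 33 and 74 fragments in WT libraries. The WT values spanned the KO values on both sides, with WT 1 lowest and WT 3 highest of all 6. The mean was 0.319 ± 0.0867 FPKM in KO and 0.945 ± 0.945 FPKM in WT (SD, n = 3 each). Slc10a2 did not reach the filter of a mean of 1 FPKM, and the fit across all genes without that filter gave a log2 fold change of -0.44 on the log2(FPKM + 1) scale (SE 0.34, 95% interval -1.24 to 0.36, limma adjusted p = 0.980). It was -0.72 with a pseudocount of 0.1 FPKM.

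Fabp6, the carrier inside the cell (chromosome 11, 43596049 to 43601540, minus strand), was at 0.316, 1.02 and 2.41 FPKM in KO libraries, against 1.22, 0.316 and 9.79 FPKM in WT libraries. These values correspond to about 1, 3 and 6 fragments in KO libraries and 4, 1 and 27 in WT libraries, since its annotated transcript has only 479 bases. WT 3 stood far above the other 5 libraries, which overlapped. Fabp6 averaged 1.25 ± 1.07 FPKM in KO and 3.78 ± 5.23 FPKM in WT (SD, n = 3 each), and the WT mean was 0.767 FPKM without WT 3. The log2 fold change was -0.60 (SE 0.72, 95% interval -2.28 to 1.08, limma adjusted p = 0.998), and its sign turned to 0.29 without WT 3. The ratio of carrier to importer varied widely, from 0.923 to 6.17 in KO libraries and from 0.383 to 18.2 in WT libraries, on counts this low. The log2 ratios differed by -0.14 (KO minus WT; exact two-sided permutation p = 0.9). With 3 animals on each side such a test cannot go below 0.1.

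The exporter genes were abundant and steady. Slc51a (chromosome 16, 32474504 to 32487879, minus strand) was at 103, 111 and 136 FPKM in KO libraries, against 120, 104 and 124 FPKM in WT libraries. The groups interleaved, and the highest value was 1.32 times the lowest over all 6 libraries. The log2 fold change was -0.00089 (SE 0.13, 95% interval -0.31 to 0.31, limma adjusted p = 0.998), with either sign under the scalings tried, 0.11 after rescaling to an equal sum and 0.070 after quantile normalization. Slc51a shares 567 of its 3198 exonic bases with Pcyt1a on the other strand, a phospholipid synthesis gene at a mean of 59.9 FPKM. The library kit keeps strand, but no source used here says whether counting used it, so reads in that stretch may not be told apart.

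Slc51b, the partner subunit (chromosome 9, 65412714 to 65422955, minus strand), was at 53.7, 69.5 and 59.8 FPKM in KO libraries, against 59.3, 88.9 and 87.0 FPKM in WT libraries. WT 2 and WT 3 lay above all KO libraries, while WT 1 lay among them. The means were 61.0 ± 7.97 FPKM in KO and 78.4 ± 16.6 FPKM in WT (SD, n = 3 each), with a log2 fold change of -0.34 (SE 0.17, 95% interval -0.75 to 0.06, limma adjusted p = 0.998). Slc51a exceeded Slc51b in every library, by 1.93, 1.59 and 2.27 times in KO libraries and 2.03, 1.17 and 1.43 times in WT libraries. The difference of log2 ratios was 0.35 (exact two-sided permutation p = 0.3), and the ratios of the groups overlapped. Import and export genes stood far apart in level, with Slc51a between 63.8 and 1802 times Slc10a2 within a library.

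Nr1h4, the gene for FXR (chromosome 10, 89454234 to 89533585, minus strand), was at 19.7, 25.9 and 27.2 FPKM in KO libraries, against 26.3, 27.9 and 36.2 FPKM in WT libraries. KO 1 was the lowest and WT 3 the highest library, and KO 3 lay above WT 1, so the groups overlapped. Nr1h4 averaged 24.3 ± 4.0 FPKM in KO and 30.2 ± 5.31 FPKM in WT (SD, n = 3 each), with a log2 fold change of -0.30 (SE 0.16, 95% interval -0.67 to 0.07, limma adjusted p = 0.998).

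The downstream genes Nr0b2 and Fgf15 were low although their receptor gene was present. Nr0b2 (chromosome 4, 133553376 to 133556536, plus strand) was at 0.426, 0.231 and 0.121 FPKM in KO libraries, against 0.104, 0.321 and 0.223 FPKM in WT libraries, or about 4, 2 and 1 against 1, 3 and 2 fragments. KO 1 was highest and WT 1 lowest, and at 1 to 4 fragments a difference between the groups was not detectable at this depth. Nr1h4 exceeded Nr0b2 by 46.3 to 253 times within a library. Without the filter, the log2 fold change of Nr0b2 was 0.048 (SE 0.11, 95% interval -0.20 to 0.30, limma adjusted p = 0.981), and it was -0.046 without KO 1 and -0.020 without WT 1.

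Fgf15 (chromosome 7, 144896531 to 144900953, plus strand), the hormone gene, was at 0.973, 0.264 and 0.139 FPKM in KO libraries, against 0.595, 0.183 and 7.70 FPKM in WT libraries. These correspond to about 16, 4 and 2 fragments in KO libraries and 10, 3 and 120 in WT libraries. WT 3 alone lay above 1 FPKM, and the other 5 libraries interleaved. Fgf15 passed the filter only through WT 3, since its mean over the other 5 libraries was 0.431 FPKM. Its log2 fold change was -0.84 (SE 0.68, 95% interval -2.41 to 0.73), given with no p-value for that reason. It was -1.35 with a pseudocount of 0.1 FPKM. The WT mean was 2.83 ± 4.22 FPKM (SD, n = 3) and 0.389 FPKM without WT 3, against 0.459 ± 0.450 FPKM in KO (SD, n = 3). Fgf15 shares 761 of its 3058 exonic bases with the antisense gene Gm26793.

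Cubn and Amn, the parts of the cobalamin receptor, were both well expressed and shared an order of libraries at the top. Cubn (chromosome 2, 13276338 to 13491813, minus strand) was at 94.6, 47.5 and 40.5 FPKM in KO libraries, against 53.9, 34.4 and 126 FPKM in WT libraries. WT 3 and KO 1 stood above the other 4 libraries, and WT 2 was lowest, a range of 3.67 times over all 6. Cubn averaged 60.9 ± 29.4 FPKM in KO and 71.4 ± 48.3 FPKM in WT (SD, n = 3 each), with a log2 fold change of -0.12 (SE 0.48, 95% interval -1.23 to 0.99, limma adjusted p = 0.998) and of 0.39 without WT 3.

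Amn (chromosome 12, 111271095 to 111276426, plus strand) was at 60.3, 36.8 and 31.1 FPKM in KO libraries, against 40.1, 44.2 and 60.7 FPKM in WT libraries. As for Cubn, WT 3 and KO 1 were the highest. The means were 42.7 ± 15.5 FPKM in KO and 48.3 ± 10.9 FPKM in WT (SD, n = 3 each), with a log2 fold change of -0.21 (SE 0.25, 95% interval -0.79 to 0.37, limma adjusted p = 0.998). Cubn exceeded Amn 1.57, 1.29 and 1.30 times in KO libraries and 1.34 and 2.08 times in WT 1 and WT 3, while WT 2 had more Amn, with a ratio of 0.777. The difference of log2 ratios between KO and WT was 0.094 (exact two-sided permutation p = 0.9).

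The libraries at the top were shared with absorptive genes and with other lists. KO 1 and WT 3, the libraries highest in Cubn and Amn, were also those with the highest summed level of 18 absorptive enterocyte markers, which was 9573, 6595 and 6339 FPKM in KO libraries and 6624, 7859 and 9609 FPKM in WT libraries. All 18 absorptive markers were in the table and none was at 0 throughout. KO 1 and WT 3 also had the highest sums of goblet cell markers (8077 and 7635 FPKM) and of proximal small intestine markers (7100 and 7049 FPKM). By the smallest root mean square difference of centred log2(FPKM + 1) profiles over the 6 libraries, the gene nearest to Cubn was Xpnpep2, a membrane aminopeptidase gene (difference 0.17), and the gene nearest to Amn was Asah2, the neutral ceramidase gene (0.030). The search covered genes over the filter and left out predicted or clone-named loci and those named Mir or Snor. Against the absorptive markers, Cubn differed between KO and WT by 0.025 and against general epithelial markers by -0.057 (log2, exact two-sided permutation p = 1 and 0.9). In whole tissue, fewer cells of a type and less RNA per cell cannot be told apart, and the part of absorptive cell content in these values was not tested.

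**Figure D3:**
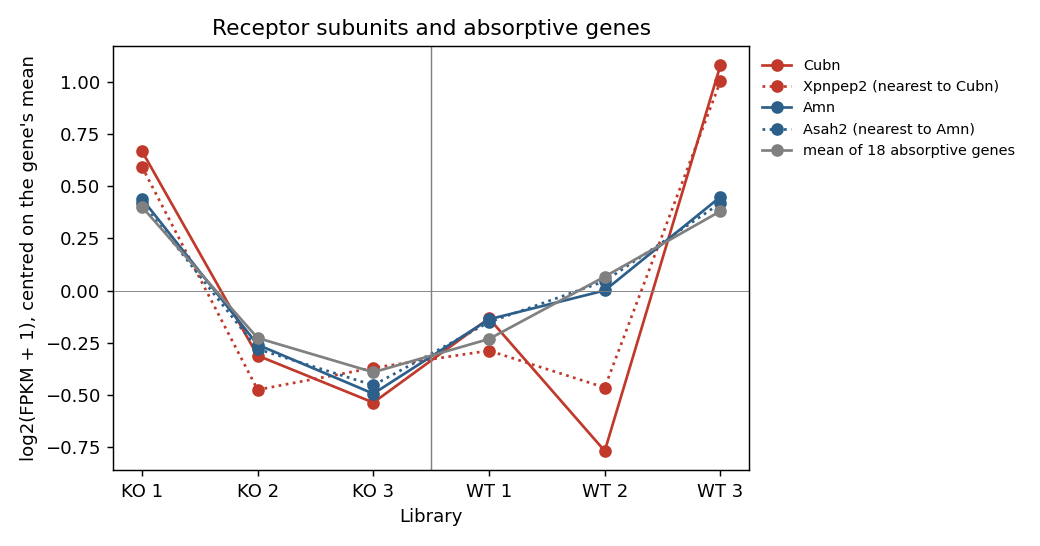
Level of Cubn, Amn, the gene nearest to each (dotted) and the mean of 18 absorptive enterocyte genes in each library, as log2(FPKM + 1) centred on each gene's own mean, with KO libraries left of WT libraries. KO 1 and WT 3 are the highest libraries for every line drawn, and WT 2 is low for Cubn and Xpnpep2 but not for Amn and Asah2.

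By the same measure, the gene nearest to Fgf15 was Nos2, the inducible nitric oxide synthase gene, with a difference of 0.42 against 1.02 for the profile's own spread. Nos2 stood at 22.0, 14.3 and 17.5 FPKM in KO libraries, against 9.40, 15.1 and 121 FPKM in WT libraries, so WT 3 was again far above the rest. The nearest gene to Fabp6 was Fgf15 (0.65). The goblet cell gene Clca1 was nearest to Slc10a2 (0.14), the glycosyltransferase gene Gcnt4 to Slc51a (0.021), the clock repressor gene Cry1 to Slc51b (0.094), the small heat shock gene Hspb7 to Nr1h4 (0.068) and the RNA helicase gene Mov10 to Nr0b2 (0.011). The Nr0b2 profile had a spread of its own of only 0.13, on 1 to 4 fragments a library.

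No member passed the test of KO against WT. With limma and Benjamini-Hochberg adjustment, 0 of the 7 members over the filter reached an adjusted p of 0.05, and 0% of the 12695 genes tested did. Fgf15 is counted among the 7 only through WT 3. At an unadjusted p under 0.05 the count was 0 of 7, beside 3.62% of all genes tested (459 genes), and it was 1 with array weights, with the replicate number as a block, without KO 1 and without WT 1. The groups overlapped for all 9 members, where 8.37% of genes tested had groups that did not overlap. The fitted estimate was below 0 for 8 of 9 members, with Slc51a next to 0 and turning sign under other scalings, beside 41.6% of all genes tested. WT 3 was the highest library for 6 of the 9 members. Without WT 3 the estimate was above 0 for Fabp6 (0.29), Cubn (0.39), Slc51a (0.048) and Nr0b2 (0.054). It was below 0 for Slc10a2 (-0.083), Slc51b (-0.26), Nr1h4 (-0.17) and Amn (-0.036), and Fgf15 fell under the filter there. The median log2 fold change of the 7 members over the filter was -0.30, against 0.029 over all genes. Exact two-sided permutation tests of single members gave p between 0.2 and 1. The intervals lay within -1 and 1 on the log2(FPKM + 1) scale for Slc51a, Slc51b, Nr1h4 and Amn, and not for Fabp6, Fgf15, Slc10a2 and Cubn. For Nr0b2, Slc10a2 and Fgf15, at or below the pseudocount of 1 FPKM in most libraries, that scale understates any change, and with 0.1 FPKM the estimate for Nr0b2 was 0.16.

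**Figure D4:**
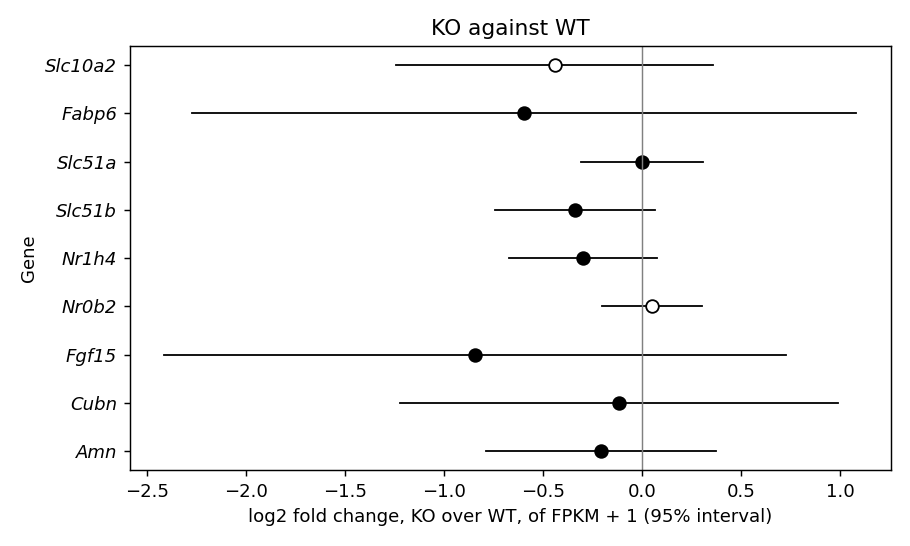
Log2 fold change of KO over WT on the log2(FPKM + 1) scale with its 95% interval for each member, from limma, with open circles for the 2 members fitted without the filter on low values. All 9 intervals include 0, and those of Fabp6 and Fgf15 are the widest drawn.

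Xist and Y-linked genes showed 2 female and 1 male animals in KO, against 1 female and 2 male animals in WT, so sex and genotype overlap only in part. Within sexes, Nr1h4 was at 25.9 and 27.2 FPKM in KO females, against 36.2 FPKM in the WT female, and at 19.7 FPKM in the KO male, against 26.3 and 27.9 FPKM in WT males. The KO values lay below the WT values in both sexes. With sex as a term, the log2 fold change of Nr1h4 was -0.44 (limma adjusted p = 0.999; unadjusted p = 0.00311). Slc51b lay lower in KO in both sexes as well, at 69.5 and 59.8 FPKM against 87.0 FPKM in females and at 53.7 FPKM against 59.3 and 88.9 FPKM in males (-0.43, adjusted p = 0.999; unadjusted p = 0.0457). Fabp6 had an estimate of -1.21 with the same term (adjusted p = 0.999; unadjusted p = 0.0274), with 1 to 27 fragments a library. These 3 of 7 members stood at an unadjusted p under 0.05 with the sex term, beside 3.57% of all genes, and 0 passed after adjustment over all genes. Nr1h4 and Slc51b were the 2 members lower in KO in both sexes, and were picked out after their values were seen. Cubn, Amn and Fgf15 were lower in KO females and higher in the KO male than in WT animals of the same sex. For Cubn this was 47.5 and 40.5 FPKM in KO females, against 126 FPKM in the WT female, and 94.6 FPKM in the KO male, against 53.9 and 34.4 FPKM in WT males. Each such contrast rests on 1 library on a side, KO 1 in males and WT 3 in females. The shares of all genes that were lower in KO in both sexes, or opposite in the sexes, were not counted.

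**Figure D5:**
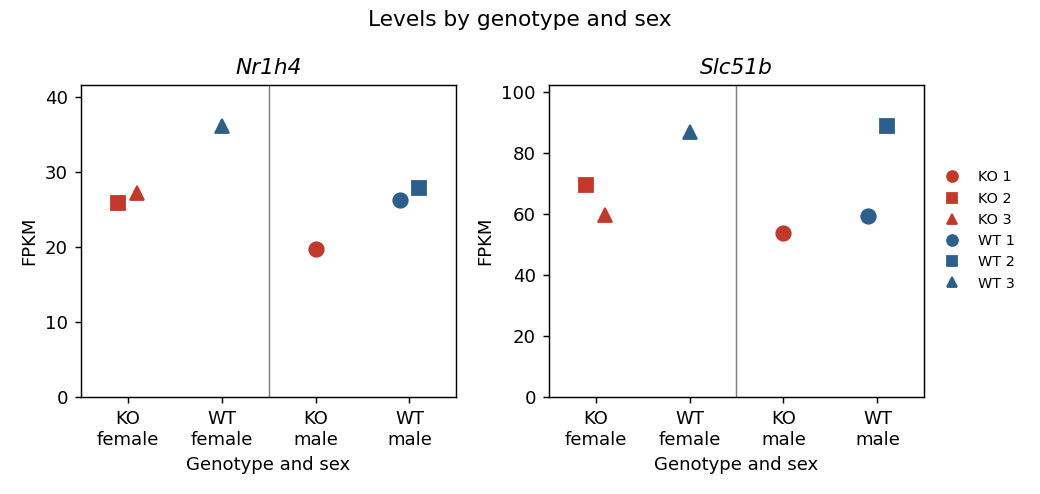
FPKM of Nr1h4 (left) and Slc51b (right) in each library by genotype and sex, KO red and WT blue, with the marker shape giving the replicate number and both axes starting at 0. In females and in males alike, each KO library lies below each WT library of the same sex.

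Other genes of bile acid handling were likewise not separated by genotype after adjustment. Of the 44 list members found, 34 were tested, 0 passed after adjustment, and 2 were higher and 0 lower in KO at an unadjusted p under 0.05, where 3.62% of all genes were in either direction, with a median log2 fold change of 0.0029. Among them was S1pr2, a sphingosine 1-phosphate receptor gene that also responds to conjugated bile acids. S1pr2 was at 3.40, 3.08 and 1.76 FPKM in KO libraries, against 1.57, 1.58 and 1.27 FPKM in WT libraries, highest in the KO libraries rich in B cell markers. The part of B cell content in that estimate (0.57, SE 0.19, limma adjusted p = 0.998) was not tested. Abcc2, an apical exporter gene picked out after its values were seen, was 1 of 3 genes of the 34 whose groups did not overlap, beside 8.37% of all genes, at 87.7 ± 6.40 FPKM in KO and 75.6 ± 0.630 FPKM in WT (SD, n = 3 each). FXR's dimer partner gene Rxra averaged 35.1 ± 2.02 FPKM in KO and 33.6 ± 0.490 FPKM in WT, and Nr5a2, the gene for the nuclear receptor LRH-1, averaged 20.6 ± 5.63 FPKM in KO and 17.9 ± 2.58 FPKM in WT (SD, n = 3 each). Hnf4a, the gene for an enterocyte transcription factor, lay between 202 and 256 FPKM over all libraries. Abcc3, a basolateral exporter gene, lay between 26.5 and 51.5 FPKM. The bile acid receptor gene Gpbar1 was at most 0.258 FPKM, and Klb and Fgfr4, which encode the receptor complex for the Fgf15 hormone, reached at most 0.455 and 1.91 FPKM. Slc10a1, Cyp7a1, Cyp8b1 and Sult2a1, known mainly from liver, were listed at 0 in all 6 libraries.

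Of the 20 other cobalamin genes 18 were tested, and 0 passed after adjustment or had an unadjusted p under 0.05. Their median log2 fold change was 0.067, beside 0.029 over all genes. Of their estimates 14 of 18 were above 0 and 4 below, where 41.6% of all genes had estimates below 0. Tcn2, which encodes the carrier of cobalamin in blood, averaged 120 ± 27.0 FPKM in KO and 130 ± 15.3 FPKM in WT (SD, n = 3 each). Cd320, the gene for its cellular receptor, averaged 2.88 ± 0.410 FPKM in KO and 2.84 ± 0.830 FPKM in WT (SD, n = 3 each). The intrinsic factor gene, listed under its older symbol Gif, reached at most 0.287 FPKM, and Lrp2, which encodes megalin, the partner of cubilin in kidney, at most 0.0296 FPKM. The 3 smallest p values of the list belonged to Mtr (methionine synthase, log2 fold change 0.18), Hcfc1 (0.25) and Abcd4, a lysosomal cobalamin exporter gene (0.18). Mtr was at 4.84 ± 0.147 FPKM in KO and 4.16 ± 0.218 FPKM in WT (SD, n = 3 each), with groups that did not overlap.

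Markers of other cells were set beside the members as sums of FPKM per library, and 0 genes of these lists passed after adjustment. B cell markers are given with no test, since Ms4a1 (the CD20 gene), Pax5, Cr2 and others passed the filter only through KO 1 and KO 2. Ms4a1 was at 9.37, 11.3 and 0.302 FPKM in KO libraries, against 0.154, 0.264 and 0.111 FPKM in WT libraries. With KO 3 as the only KO library, a choice made after seeing the data, no member passed either, and the log2 fold change was -0.60 for both Cubn and Amn. An unadjusted p under 0.05 was met by 3.62% of all genes tested in either direction, and 41.6% of all genes had estimates below 0. At that threshold, Paneth cell markers were lower for 4 of 8 genes, with all 8 estimates below 0. Among them was Pla2g2a, at 24.7 ± 4.5 FPKM in KO and 35.9 ± 6.62 FPKM in WT (SD, n = 3 each). Adipocyte markers were lower at that threshold for 3 of 7 genes, among them Fabp4, another fatty acid binding protein gene, at 36.3 ± 3.03 FPKM in KO and 53.2 ± 9.12 FPKM in WT. Of the 7 estimates 5 were below 0 and 2 above, Pck1 (1.05) and Lpl (0.27). The adipocyte sums overlapped, at 156 to 325 FPKM in KO libraries and 126 to 244 FPKM in WT libraries. General epithelial markers were lower at that threshold for 1 of 10 genes, Tspan8, with 7 of 10 estimates below 0, and summed to 4390 to 5467 FPKM in KO libraries and 4743 to 5117 FPKM in WT libraries. For T cell, macrophage, smooth muscle, goblet, enteroendocrine, absorptive, proximal and colon markers 0 genes passed that threshold. Of the absorptive estimates 15 of 18 were below 0, beside 41.6% of all genes. Relative to general epithelial markers, the difference between KO and WT had an exact two-sided permutation p between 0.2 and 0.9 for each member. The part of other cells in the members' values was not tested.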

How the data were processed

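The submitters' processing notes name builds GRCm38 and mm10 and the tools STAR, Cufflinks, Cuffnorm, Trimmomatic, FastQC, bedtools and SAMtools, without versions or settings. The kit is directional, per the labels' protocols. The authors deposited FPKM values, 1 column per library, matched to samples by genotype and number. The members and gene lists were chosen with earlier results of these data known.

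The 12695 genes whose mean was 1 FPKM or more entered a limma fit of log2(FPKM + 1) with the prior variance following mean level. Its tests were two-sided, with Benjamini-Hochberg adjustment over all genes tested and a threshold of 0.05. Slc10a2 and Nr0b2, under the filter, were read from the same fit without it. Single values were compared by exact permutation. P-values rest on 3 animals a group. In limma the spread between animals was moderated by that of genes of like level.

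Depth was estimated from 3302 genes with 1 annotated transcript, after taking 190 bases off each. At the best scale 72.1% to 75.5% of low values lay within 0.08 of a whole fragment, against a median of 7.78% to 9.01% over all scales tried. Member fragments assume the longest coding transcript.

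Of 192 list symbols, 4 were matched under an older symbol and 11 had no match, among them all 7 mitochondrial transcripts set as the measure of RNA quality. Named genes were the members, the gene nearest to each, Il17ra, and from each pathway list those with an unadjusted p under 0.05, or else the 3 with the smallest p, and those set by role. Marker lists are given mainly as counts and sums. Some genes of the pathway lists are not reported here. The alternatives were pseudocounts of 0.1 and 5, no filter or one of 5 FPKM, other scalings, limma variants, a sex term, a replicate block, leaving out each library and, added after seeing the data, KO 3 alone. Software was limma 3.58.1 under R 4.3.3, with pandas 2.3.3, numpy 2.4.6, matplotlib 3.10.9 and Python 3.11.15.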

Additional observations from a re-analysis of the deposited data

Results flagged for a closer look

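For 3 members the direction of KO against WT was opposite in the sexes, which were read from Xist and Y-linked genes. The share of all genes with such opposite directions was not counted, so the number is not read as a trait of the members. Fgf15 was at 0.264 and 0.139 FPKM in KO females, against 7.70 FPKM in the WT female, and at 0.973 FPKM in the KO male, against 0.595 and 0.183 FPKM in WT males. Its KO effect in females minus that in males was -3.38 on the log2 scale, given with no test, since Fgf15 passed the filter on low values only through WT 3. For Cubn the KO effect in females minus that in males was -2.62 (SE 0.37, limma adjusted p = 0.0814). Amn was at 36.8 and 31.1 FPKM in KO females, against 60.7 FPKM in the WT female, and at 60.3 FPKM in the KO male, against 40.1 and 44.2 FPKM in WT males. Its KO effect in females minus that in males was -1.33 (SE 0.21, limma adjusted p = 0.0822). Cubn and Amn were flagged from these same values, and neither passed the threshold of 0.05 after adjustment. Of all 12695 genes tested for such a difference of KO effects between sexes, 20.7% had an unadjusted limma p under 0.05, and 10 passed after adjustment. KO 1 is the only KO male and WT 3 the only WT female, so a difference between sexes cannot be told apart from these 2 libraries. The 6 libraries leave 2 residual degrees of freedom.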

How the results depend on the processing

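No member passed the adjusted threshold under any alternative in which it could be fitted. Genes passing numbered 0 as reported, 2 with a pseudocount of 0.1, 2 with one of 5, 2 with libraries scaled to the same total, 24 with array weights, 4 with KO 3 alone (a choice made after seeing the data, in which the lone library is assumed to vary like the WT libraries) and 0 to 46 with a library left out (46 without KO 3, 1 without KO 1, 2 without WT 1 or WT 3). Genes at an unadjusted p under 0.05 numbered 459 as reported, 770 without a filter, 269 with a filter of 5 FPKM, 1174 with the same total, which moved the median of all genes to 0.13, 2717 with array weights and 187 to 823 with a library left out (187 without KO 2, 823 without KO 1). With the replicate number as a block, 1 gene passed and 404 had an unadjusted p under 0.05. Members at that unadjusted p numbered 0 as reported, 3 with a sex term, 1 with array weights (Slc51b), 1 with the block (Slc51b) and 0 to 1 with a library left out (Amn without KO 1, Slc51b without WT 1), counting the 7 over the filter. Same-numbered libraries did not deviate together (correlations of -0.13, 0.034 and -0.11). With 3 animals a group, these correlations cannot show whether the numbers pair the animals. Array weights turned the sign of Fabp6 (0.45), Slc51a (0.10), Cubn (0.39) and Nr0b2 (-0.039), KO 3 alone that of Fabp6 (0.11), Slc51a (0.23), Nr0b2 (-0.11) and Il17ra (-0.018), and scaling that of Slc51a (0.11 with the same total, 0.070 under quantile normalization). With a library left out, the log2 fold change ran from -1.23 to 0.29 for Fabp6, -0.12 to 0.081 for Slc51a, -0.53 to 0.39 for Cubn and -0.046 to 0.13 for Nr0b2. Without a change of sign it ran from -0.48 to -0.013 for Amn, -0.82 to -0.083 for Slc10a2, -0.39 to -0.16 for Nr1h4 and -0.53 to -0.24 for Slc51b. Fgf15 ran from -1.39 to -0.69, but these fits do not cover leaving out WT 3, its highest library. Relative to general epithelium, Fgf15 stood at 0.084 without WT 3. The log2 ratio difference then ran from -0.27 to 0.44 for Cubn to Amn, -1.69 to 1.09 for Fabp6 to Slc10a2, -2.06 to 0.35 for Slc10a2 to Slc51a and 0.17 to 0.56 for Slc51a to Slc51b. Relative to general epithelium it ran from -1.19 to 0.33 for Fabp6, -0.064 to 0.21 for Slc51a, -1.35 to 0.084 for Fgf15, -0.49 to 0.43 for Cubn and -0.35 to 0.038 for Amn, and relative to absorptive markers Cubn gave 0.025. The cause was not tested. Fabp6 and Fgf15 have no value at a filter of 5 FPKM, nor has Fgf15 without WT 3. With 3 animals a group, the 1 to 120 fragments behind Fabp6, Fgf15, Slc10a2 and Nr0b2 limit these 4 members.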
